A study of Mus musculus with 7 samples.

Results

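Epithelial cells are held together by junctions whose genes can be read directly in single-cell data, and 10 of them are described here in 7 libraries of mouse mammary tumor cells. They are *Cldn1*, *Cldn3*, *Cldn4*, *Cldn7*, *Cldn10*, *Ocln*, *Tjp1*, *Epcam*, *Cdh1* and *Cd24a*, found by their symbols among the 31053 genes of the count matrices, with 1 row each. The BRCA1-null tumors arose spontaneously in mice with floxed alleles of both genes, Brca1 F/F and Trp53 F/F, and K14-Cre, whose keratin 14 promoter drives the recombinase, and the Neu tumors arose spontaneously in mice with the MMTV-Neu transgene. The PyMT tumors grew from transplanted FF99WT cells, a line from 1 MMTV-PyMT tumor with FIP200 floxed alleles and no Cre recombinase, so transplantation and the oncogene cannot be told apart in them. The labels give these 3 tumor types the strain FVB/NJ, with 2 tumors each (replicates A and B, sequenced in separate batches), and the tumor of Neu replicate A also carried floxed FIP200 alleles without Cre. A single 4T1 tumor, grown from a BALB/C carcinoma line carrying a lentiviral GFP, was the seventh library and entered no comparison between tumor types. All mice were adult, no tumor was treated, tumors were taken at about 1000 mm3, and CD24+ cells lacking CD31, CD45 and Ter119 were sorted before the libraries were made. The sort used the protein made from *Cd24a*, so the level of this gene is that of cells already chosen for its product.

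Tight junctions seal the space between neighboring epithelial cells, and claudins are the membrane proteins that form their strands. CLDN1 and CLDN3 are known to tighten the barrier, whereas CLDN10 forms pores that let ions pass. Occludin, from *Ocln*, lies in the same strands, and ZO-1, from *Tjp1*, is the scaffold that ties them to actin. E-cadherin, from *Cdh1*, holds cells together at adherens junctions, EPCAM is an adhesion protein of epithelial membranes that binds CLDN7, and CD24 is a glycosylated surface protein used to sort mammary epithelium. Low expression of claudins and E-cadherin is the known mark of claudin-low breast cancers, and transcription factors of the ZEB, SNAIL and TWIST families repress epithelial junction genes.

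*Cldn3* (chr5:134986214-134987472, plus strand) and *Cldn4* (chr5:134945119-134946934, minus strand) lie head to head on GRCm38, 39279 bases apart with 0 annotated genes between them. The other genes are spread over chromosomes 7 (*Tjp1*), 8 (*Cdh1*), 10 (*Cd24a*), 11 (*Cldn7*), 13 (*Ocln*), 14 (*Cldn10*), 16 (*Cldn1*) and 17 (*Epcam*). RefSeq promoter windows (GRCm38.p6) were found for 8 of the 10 genes, and the 250 bases before each start were searched for CAGGTG and its reverse complement CACCTG, the E-box letters that ZEB and SNAIL factors are known to bind. Of 11 windows of these genes 4 held the letters, those of *Cldn4*, *Epcam* and 1 of 2 starts each of *Cldn7* and *Ocln*, and 17.2% of all 32851 windows did. The *Cldn7* and *Ocln* windows with the letters overlapped exons of their own genes, and the windows of their other starts held none. *Epcam* was chosen as a gene of epithelial membranes, and *Cldn4* and *Cldn3* because they define, with *Cldn7*, the split of cells used below. The sequences of *Epcam* (motif at 2 places), *Cldn4* (1, close to its start) and its neighbor *Cldn3* (none) are shown. Each runs 5′ to 3′ on the strand of the gene and ends at the last base before the start, with the motif in capitals.
Epcam, chr17:87635729-87635978, plus strand: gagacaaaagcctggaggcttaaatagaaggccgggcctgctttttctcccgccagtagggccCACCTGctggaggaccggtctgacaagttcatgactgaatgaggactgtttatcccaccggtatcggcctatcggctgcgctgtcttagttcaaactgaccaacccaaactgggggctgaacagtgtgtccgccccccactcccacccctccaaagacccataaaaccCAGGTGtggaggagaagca
Cldn4, chr5:134946935-134947184, minus strand: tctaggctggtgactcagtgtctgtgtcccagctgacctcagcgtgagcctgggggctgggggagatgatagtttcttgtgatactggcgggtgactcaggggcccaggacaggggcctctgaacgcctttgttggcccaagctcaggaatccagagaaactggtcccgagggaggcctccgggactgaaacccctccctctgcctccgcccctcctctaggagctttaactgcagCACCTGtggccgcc
Cldn3, chr5:134985964-134986213, plus strand: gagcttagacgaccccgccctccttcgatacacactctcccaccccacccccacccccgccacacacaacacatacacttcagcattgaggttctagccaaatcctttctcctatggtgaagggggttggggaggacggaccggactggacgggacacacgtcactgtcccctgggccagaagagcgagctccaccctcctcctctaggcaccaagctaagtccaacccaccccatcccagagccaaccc
A match is a description of the letters and no measurement of binding, and none of the 3 windows overlapped an annotated exon.

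The matrices held 13745 barcodes, of which 12168 cells had at least 1000 unique molecular identifiers (UMIs, each a captured transcript counted once), 500 genes and under 20% mitochondrial UMIs. BRCA1-null replicate A kept 245 cells and the other libraries between 1751 and 2308, with median depths from 8609 to 19410.5 UMIs per cell. *Brca1* was at 7.85 and 2.66 CPM (UMIs of a gene scaled to a fixed library total) in the BRCA1-null libraries, above the 0.313 to 1.52 CPM of PyMT and Neu, and *Trp53* was at 31.7 and 23.7 CPM against 46.1 to 103. The 3′ ends counted by this chemistry need not lie in the deleted exons, so neither level checks the genotype. Cells with UMIs of 3 or more fibroblast, endothelial, leukocyte or pericyte markers at 3000 UMIs numbered 12 of 222 in BRCA1-null replicate A, 527 of 1901 in replicate B and at most 6 in any other library. In BRCA1-null replicate B 491 of them carried fibroblast markers, and 73 carried pericyte markers. The fibroblast markers include *Col1a1*, *Col1a2* and *Col3a1*, which also served as mesenchymal markers. The paper classed a BRCA1-null cluster with fibroblast genes as tumor cells, from predicted copy number changes. The marker rule cannot tell such tumor cells from fibroblasts. The endothelial list summed to 62.0 and 16.4 CPM in BRCA1-null replicates A and B, 0.849 to 1.93 in PyMT and Neu and 16.2 in 4T1, and the leukocyte list to 55.2 and 102, 4.47 to 9.13 and 9.75 CPM. Cells with these markers are counted in all levels and shares unless a result is said to leave them out. The differences between tumor types were also fitted without them, and the numbers of genes called are given below.

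At the level of whole libraries, the mean of the adhesion genes stood lower in BRCA1-null tumors than that of PyMT and Neu tumors on the log2 scale, except for *Cldn10*. *Ocln* and *Cdh1* passed the test across all genes, at log2 fold changes of -2.17 and -1.73, and the other 8 genes did not pass it. Levels are CPM over the cells kept, scaled by the trimmed mean of M values (TMM), and are compared between libraries for 1 gene at a time, since a 3′ count is not divided by gene length. The contrast sets BRCA1-null against the mean of PyMT and Neu on the log2 scale, with 2 libraries per tumor type and 3 residual degrees of freedom. Of all 13950 genes tested 9.72% were called lower and 17.8% higher, beside 2 and 0 of these 10. In sums over a library, fewer cells of a type and less RNA per cell cannot be told apart. The median log2 fold change of the 10 genes was -1.70, beside 0.09 for all genes tested. At an unadjusted p under 0.05 there were 7 of the 10 genes.

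**Figure D1:**
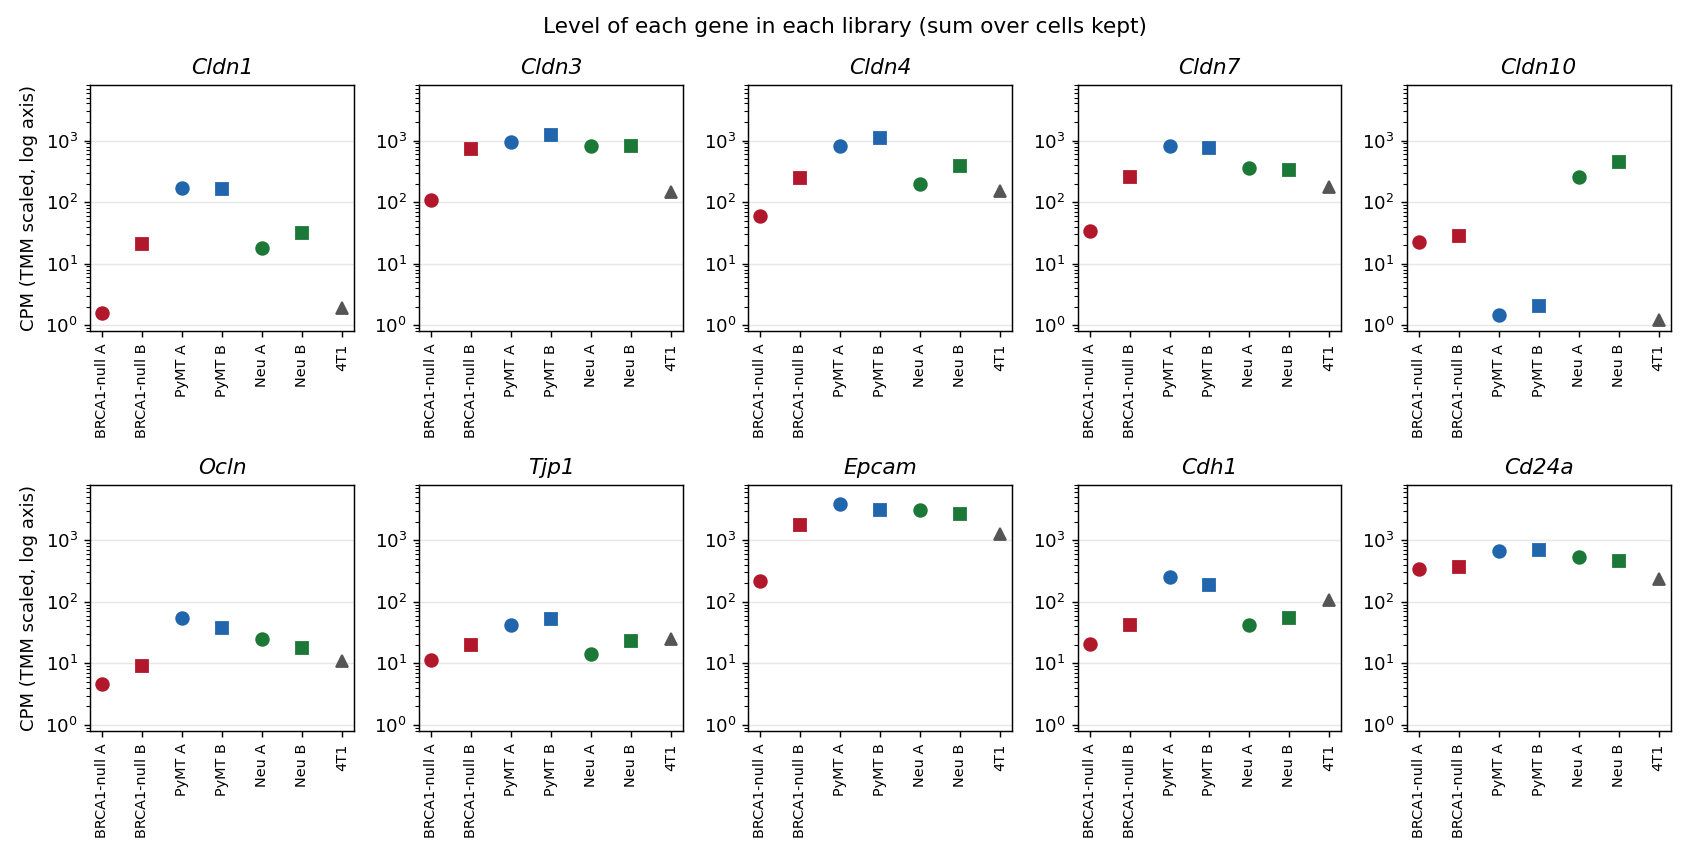
Level of each of the 10 genes in each library, in TMM-scaled CPM on a log axis, with 1 point per library (circles replicate A, squares replicate B, triangle 4T1; red BRCA1-null, blue PyMT, green Neu). BRCA1-null replicate A has the lowest point of Epcam, Cldn3, Cldn4 and Cldn7, at 218, 109, 58.9 and 34.0 CPM, while Cldn10 stands at 255 and 450 CPM in Neu and at 1.22 to 2.09 CPM in PyMT and 4T1.

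*Cdh1* was at 20.4 and 41.6 CPM in the BRCA1-null tumors, 256 and 189 in the PyMT tumors, 42.4 and 54.3 in the Neu tumors and 108 in the 4T1 tumor. The tumor types did not overlap, although the higher BRCA1-null library stood just under the lower Neu library. *Cdh1* fell by 1.73 on the log2 scale (SE 0.37, edgeR quasi-likelihood test with Benjamini-Hochberg adjustment, adjusted p = 0.0153), and within batches A and B the difference was -2.36 and -1.28. The adjusted p was 0.0527 without PyMT replicate A and 0.0554 without Neu replicate B.

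*Ocln* was at 4.65 and 9.06 CPM in the BRCA1-null tumors, 53.7 and 38.3 in the PyMT tumors, 25 and 18.1 in the Neu tumors and 11.1 in the 4T1 tumor. Its 3 tumor types were also apart, in the order PyMT, Neu and BRCA1-null. The log2 fold change against the mean of PyMT and Neu was -2.17 (SE 0.39, adjusted p = 0.00878, edgeR), and -2.98 and -1.54 within batches A and B. *Ocln* was called under each of the 15 other settings tried for this contrast.

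*Epcam* was at 218 and 1785 CPM in the BRCA1-null tumors, 3878 and 3119 in the PyMT tumors, 3077 and 2630 in the Neu tumors and 1279 in the 4T1 tumor. BRCA1-null replicate A stood far below every other library, and replicate B stood above 4T1 and below PyMT and Neu. The difference of -1.66 (SE 0.76) did not pass the test (adjusted p = 0.147, edgeR), and it was -3.99 within batch A against -0.68 within batch B. Without BRCA1-null replicate B the log2 fold change was -3.94 at an adjusted p of 0.00134, and without replicate A it was -0.87 at an adjusted p of 0.0828.

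*Cldn3*, *Cldn4* and *Cldn7* followed the same pattern. *Cldn3* was at 109 and 725 CPM in the BRCA1-null tumors, 956 and 1241 in the PyMT tumors, 826 and 817 in the Neu tumors and 145 in the 4T1 tumor. *Cldn4* was at 58.9 and 247 CPM in the BRCA1-null tumors, 811 and 1088 in the PyMT tumors, 194 and 390 in the Neu tumors and 150 in the 4T1 tumor. *Cldn7* was at 34.0 and 256 CPM in the BRCA1-null tumors, 815 and 762 in the PyMT tumors, 353 and 331 in the Neu tumors and 173 in the 4T1 tumor. In each of them BRCA1-null replicate A was the lowest library, and only *Cldn4* overlapped between BRCA1-null and Neu. None of them passed the test, with log2 fold changes of -1.19 (SE 0.68, adjusted p = 0.231), -1.78 (SE 0.62, adjusted p = 0.0738) and -1.84 (SE 0.73, adjusted p = 0.105) by edgeR for *Cldn3*, *Cldn4* and *Cldn7*. These values were set largely by which BRCA1-null tumor was read. Within batches A and B they were -3.03 and -0.48 for *Cldn3*, -2.75 and -1.40 for *Cldn4*, and -3.98 and -0.97 for *Cldn7*. Without BRCA1-null replicate A they were -0.43, -1.14 and -1.06, and without replicate B -3.20, -3.24 and -4.01, with adjusted p of 0.00182, 0.00653 and 0.00079 in the latter fit (edgeR).

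*Cldn1* was at 1.60 and 20.6 CPM in the BRCA1-null tumors, 167 and 164 in the PyMT tumors, 18.1 and 31.6 in the Neu tumors and 1.92 in the 4T1 tumor. The BRCA1-null replicates stood further apart than those of PyMT or Neu, and replicate B overlapped with Neu. *Tjp1* was at 11.2 and 19.6 CPM in the BRCA1-null tumors, 42.5 and 52.6 in the PyMT tumors, 14.2 and 22.8 in the Neu tumors and 24.9 in the 4T1 tumor, with BRCA1-null and Neu overlapping. Neither passed the test, at log2 fold changes of -2.47 (SE 0.86, adjusted p = 0.0737) and -0.94 (SE 0.35, adjusted p = 0.0885, edgeR). *Cldn1* was at -5.10 within batch A and -1.80 within batch B, at -1.68 without BRCA1-null replicate A and at -5.40 without replicate B. *Tjp1* was at -1.13 and -0.83 within the batches, and at -0.65 without BRCA1-null replicate A and -1.49 without replicate B.

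*Cd24a* was at 342 and 373 CPM in the BRCA1-null tumors, 669 and 690 in the PyMT tumors, 541 and 465 in the Neu tumors and 234 in the 4T1 tumor. The 3 tumor types did not overlap and their order was that of *Ocln*, with a log2 fold change of -0.71 (SE 0.23, adjusted p = 0.0582, edgeR). The mouse genome holds near-identical retrocopies of *Cd24a*, so its count is uncertain.

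*Cldn10* was the exception. It was at 22.5 and 28.6 CPM in the BRCA1-null tumors, 1.44 and 2.09 in the PyMT tumors, 255 and 450 in the Neu tumors and 1.22 in the 4T1 tumor. BRCA1-null stood between PyMT and Neu, so its difference of 0.03 (SE 0.30) from their mean on the log2 scale describes neither of them (adjusted p = 0.956, edgeR). The sign of this difference changed under 5 other settings, with no call under any of them.

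The replicate letter was the sequencing batch, and a block for it raised the genes called lower in BRCA1-null from 2 to 5. With the block 3672 of all 13950 genes were called in either direction, beside 3844 without it. *Cdh1* and *Ocln* were called with and without this replicate block, and it added *Cldn1* (log2 fold change -2.94, adjusted p = 0.0419), *Cldn4* (-2.03, adjusted p = 0.0184) and *Tjp1* (-0.97, adjusted p = 0.0363, edgeR). Without BRCA1-null replicate A or B that type had 1 library left. The fold changes of *Epcam*, *Cldn1*, *Cldn3*, *Cldn4*, *Cldn7* and *Tjp1* in those fits are given above. Without cells carrying non-epithelial markers, and with only cells that had a UMI of *Krt8* or *Krt18*, 2 were called, again *Cdh1* and *Ocln*. Leaving out the cells with non-epithelial markers lowered the members at an unadjusted p under 0.05 from 7 to 4 (edgeR). All genes called went from 3844 to 3309.

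Other junction genes were also lower in BRCA1-null, though not all of them. Of 17 further tight junction genes 5 fell and 0 rose, with a median log2 fold change of -1.06. Those with the smallest adjusted p were *Cgnl1*, for paracingulin, at -2.45 (adjusted p = 0.00215), *Marveld2*, for tricellulin at the corners where cells meet, at -2.56 (adjusted p = 0.00419), *Marveld3*, a relative of occludin, at -3.01 (adjusted p = 0.00954), and *Patj*, a polarity scaffold, at -1.48 (adjusted p = 0.0301, edgeR). *Marveld2* was at 3.20 and 5.95 CPM in BRCA1-null and between 24.9 and 29.7 in PyMT and Neu, so the 2 sides were apart.

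Of 8 other claudins that passed the filter on low counts, of 16 in the matrices, 3 rose and 3 fell. *Cldn2*, a pore-forming claudin, was at 0.145 and 0.256 CPM in BRCA1-null and between 1.02 and 10.3 in PyMT and Neu (log2 fold change -3.88, SE 0.73, adjusted p = 0.0103). *Cldn6*, a claudin of embryonic epithelia, was at 0.582 and 92.6 CPM in BRCA1-null and at most 0.239 in PyMT and Neu (8.22, SE 1.59, adjusted p = 0.0113), nearly all of it in replicate B. *Cldn5*, the claudin of blood vessel walls, was at 3.78 and 1.41 CPM in BRCA1-null and had 0 UMIs in the other 5 libraries (adjusted p = 0.00678, edgeR), and all 6 endothelial markers tested, of which it is 1, rose. *Cldnd1*, a claudin domain protein, fell by 0.96 (adjusted p = 0.0319). The part of endothelial cells in the *Cldn5* value was not tested.

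At adherens junctions 1 of 10 genes rose and 1 fell. *Cdh3*, the P-cadherin of basal and myoepithelial cells, was at 10.6 and 9.38 CPM in BRCA1-null, 1.37 and 1.25 in Neu and 0 in both PyMT libraries (adjusted p = 0.00109), and *Ctnnd1*, the p120 catenin that binds cadherin tails, fell by 1.56 (adjusted p = 0.00639, edgeR). Of 9 desmosome genes 3 fell, namely the plakophilins *Pkp2* (-1.81, adjusted p = 0.00592) and *Pkp3* (-1.56, adjusted p = 0.00715) and *Evpl*, for envoplakin (-1.86, adjusted p = 0.0236). Of 17 regulators of the epithelial state 6 fell and 1 rose. *Spint1* and *Spint2*, inhibitors of membrane proteases, stood at -2.62 (adjusted p = 0.00739) and -2.33 (adjusted p = 0.0074), *Grhl1* fell by 1.72 (adjusted p = 0.0116), and *Grhl3*, of the same grainyhead family, was at 1.02 and 3.55 CPM in BRCA1-null against at most 0.149 in PyMT and Neu (5.65, adjusted p = 0.00768, edgeR).

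Of 8 transcription factors of the epithelial-mesenchymal transition tested, 7 rose and 0 fell in BRCA1-null, with a median log2 fold change of 6.18. *Zeb1* was at 31.8 and 16.1 CPM in BRCA1-null and at most 0.416 in PyMT and Neu, and *Zeb2* was at 9.74 and 24.0 against at most 0.438. The log2 fold changes were 6.42 for *Zeb1* (adjusted p = 0.000669), 6.57 for *Zeb2* (adjusted p = 0.000771), 4.89 for *Twist1* (adjusted p = 0.000795) and 7.34 for *Prrx1* (adjusted p = 0.00135, edgeR). All 9 mesenchymal, all 8 fibroblast, 6 of 6 endothelial, 7 of 8 leukocyte and 4 of 8 pericyte markers rose as well. Summed fibroblast markers were at 514 and 2162 CPM in BRCA1-null against 4.97 to 18.8 in PyMT and Neu and 34.5 in 4T1, and the part of such cells in the rise of the transcription factors was not tested. The endothelial gene *Cdh5* was at 0 in PyMT, Neu and 4T1, and the leukocyte gene *Ptprc* was at 0 in PyMT replicate B and both Neu libraries. In 4T1, with *Zeb2* at 22.3 and *Vim* at 1790 CPM but *Zeb1* at 1.18, *Epcam* and *Cdh1* levels stood above those of BRCA1-null replicate A, which is a description of single libraries.

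PyMT and Neu tumors differed in *Cdh1* and *Cldn10*, and in opposite directions. *Cdh1* was higher in PyMT by 2.2 on the log2 scale (SE 0.41, adjusted p = 0.0162), with differences of 2.59 and 1.80 within batches A and B. *Cldn10* was lower in PyMT by a log2 fold change of -7.62 (SE 0.48, adjusted p = 0.00159, edgeR), with -7.47 and -7.75 within the batches. *Cldn10* was called under each of the 15 other settings, and *Cdh1* lost its call without any single PyMT or Neu library, at adjusted p between 0.0715 and 0.137. The other 8 genes stood higher in PyMT by 0.29 (*Epcam*) to 2.73 (*Cldn1*) without passing the test. Across all genes tested 7.5% were called higher and 9.38% lower in PyMT, beside 1 and 1 of 10 here, and 6 of the 10 genes had an unadjusted p under 0.05.

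The replicate block raised the calls between PyMT and Neu from 2 to 4, adding *Cldn4* (1.81, adjusted p = 0.0414) and *Tjp1* (1.40, adjusted p = 0.0267, edgeR). Of all 13950 genes 2229 were called with the block, beside 2355 without it. Leaving out either BRCA1-null library raised the calls both among the 10 genes and among all genes, although the PyMT and Neu libraries were the same. A pair of other claudins passed the test in this contrast, *Cldn23* higher in PyMT (3.93, adjusted p = 0.0107) and *Cldn8* lower (-3.82, adjusted p = 0.0113). *Cldn8* was at 28.5 and 15.5 CPM in Neu and at most 1.64 in PyMT, a difference in the direction of *Cldn10*. Among 17 tight junction genes *Pard6b*, a polarity protein, was higher in PyMT by 4.31 (adjusted p = 0.00432), and *Cgnl1* was lower at -1.65 (adjusted p = 0.0125, edgeR). Of 10 adherens junction genes *Vcl*, for vinculin, was higher (2.41, adjusted p = 0.0148) and *Cdh3* lower, and of 9 desmosome genes *Pkp3* and *Pkp2* were higher (1.38 and 1.27) and *Dsc2*, a desmosomal cadherin, was lower (-6.41, adjusted p = 0.00363). Among the epithelial regulators *Klf5*, a transcription factor of epithelial progenitors, was higher in PyMT at 483 and 320 CPM against 57.9 and 79.1 in Neu (2.55, adjusted p = 0.0446), and *Grhl1* was lower (-1.68, adjusted p = 0.0242, edgeR).

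Shares of cells with a UMI were compared at 1 depth, with each cell thinned at random to 3000 UMIs. Shallower cells were left out, which removed 23, 177, 98, 48, 233, 49 and 66 cells from BRCA1-null A and B, PyMT A and B, Neu A and B and 4T1. *Epcam* was detected in 33.8% of cells in BRCA1-null replicate A (exact 95% interval 27.6 to 40.4), 74.9% in replicate B (72.8 to 76.8), 99.3% to 99.8% in the PyMT and Neu libraries and 90.7% in 4T1 (89.3 to 92.1). Nearly every PyMT and Neu cell therefore held the transcript, and 147 of 222 cells of BRCA1-null replicate A did not at this depth. Unthinned, the *Epcam* shares were 72.7% and 86.1% in BRCA1-null and 97.3% in 4T1. Intervals cover counting error only. The BRCA1-null replicate B share counts 527 cells of 1901 with non-epithelial markers. *Epcam* was seen in 31.8% of the 491 that carried fibroblast markers.

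**Figure D2:**
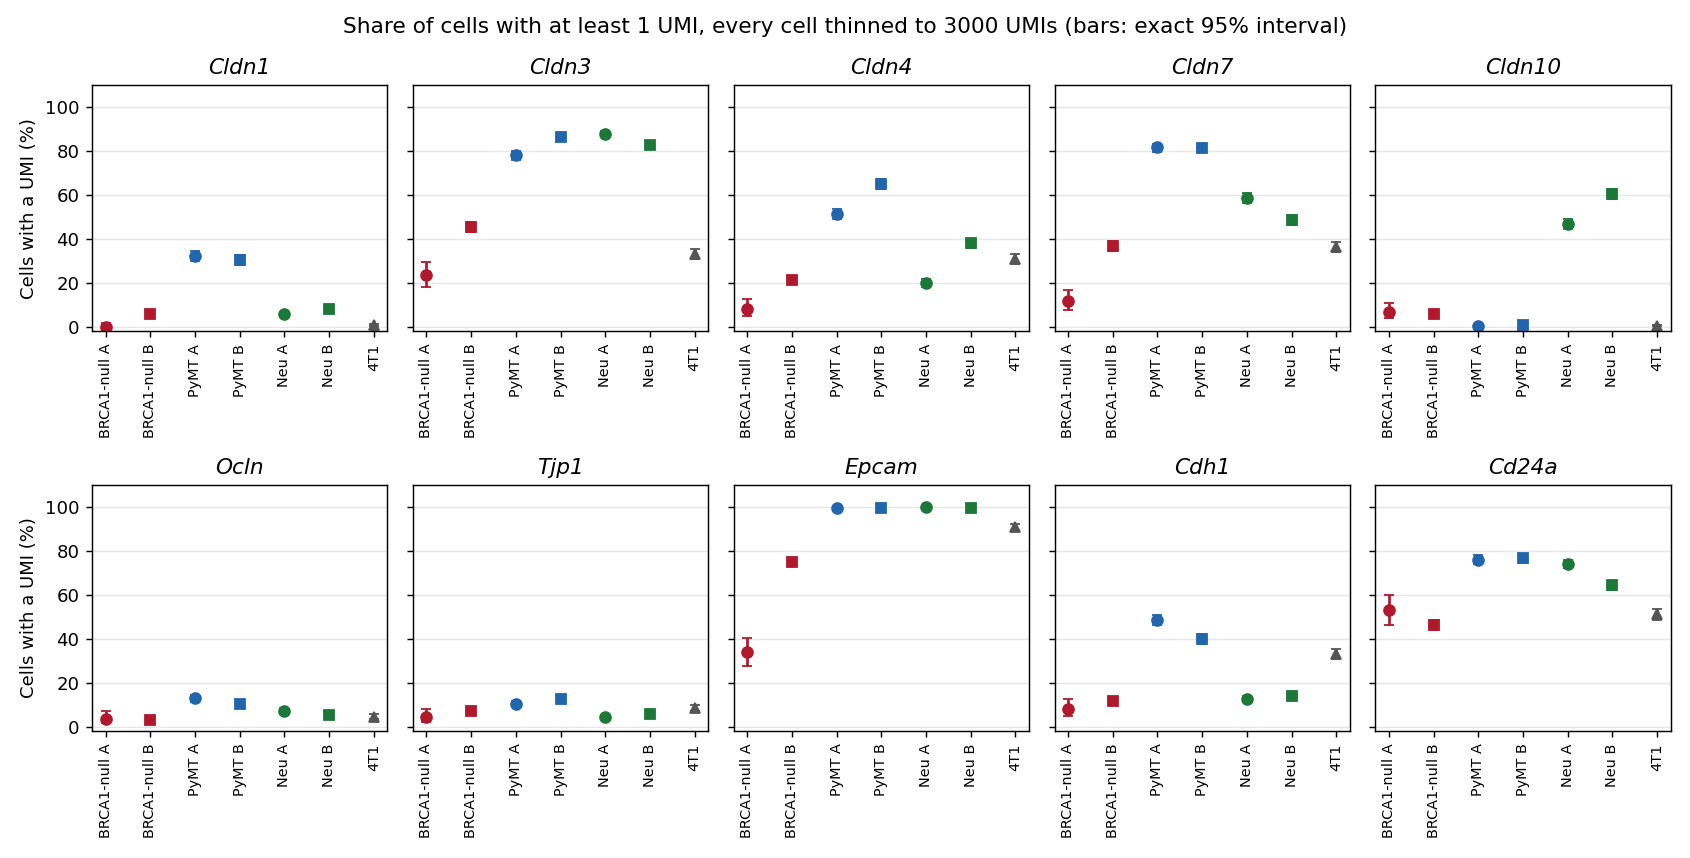
Share of cells with at least 1 UMI of each gene after thinning every cell to 3000 UMIs, in percent, with 1 point per library and exact 95% intervals (colors and symbols as in the plot of levels). Epcam is at 99.3% to 99.8% in PyMT and Neu and at 33.8% and 74.9% in BRCA1-null, and Cldn10 is at 46.7% and 60.3% in Neu against 0.379% to 0.725% in PyMT and 4T1. Cells carrying non-epithelial markers are included.

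*Cldn3* was detected in 23.4% and 45.5% of BRCA1-null cells, 77.9% and 86.3% of PyMT cells, 87.9% and 82.8% of Neu cells and 32.9% of 4T1 cells. *Cldn7* was detected in 11.7% and 36.7% of BRCA1-null, 81.6% and 81.4% of PyMT, 58.5% and 48.6% of Neu and 36.1% of 4T1 cells. *Cldn4* was detected in 8.11% and 21.1% of BRCA1-null, 51.5% and 64.8% of PyMT, 19.9% and 37.9% of Neu and 30.7% of 4T1 cells. *Cldn3* thus covered most Neu cells while *Cldn4* did not, and of these 3 genes BRCA1-null overlapped with Neu in *Cldn4* only. In BRCA1-null replicate A the 105 thinned UMIs of *Cldn4* came from 18 cells, whereas the 103 of *Cldn3* came from 52.

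*Cdh1* was detected in 8.11% and 11.7% of BRCA1-null, 48.5% and 39.7% of PyMT, 12.5% and 13.8% of Neu and 33.1% of 4T1 cells. *Ocln* was detected in 3.60% and 3.0% of BRCA1-null, 12.8% and 10.4% of PyMT, 7.23% and 5.18% of Neu and 4.45% of 4T1 cells. *Tjp1* was detected in 4.48% to 12.5% of cells in every library. *Cldn1* was seen in 0 of 222 cells of BRCA1-null replicate A, which allows a share of cells with a UMI of up to 1.35% at this depth (3 counts), and in 5.84% of replicate B, 32.2% and 30.4% of PyMT, 5.64% and 8.32% of Neu and 0.831% of 4T1 cells. PyMT stood highest in each of these 4 genes. Unthinned, 9 of 245 cells of BRCA1-null replicate A held a UMI of *Cldn1* (3.67%). *Cldn10* was detected in 6.76% and 5.63% of BRCA1-null, 0.379% and 0.725% of PyMT, 46.7% and 60.3% of Neu and 0.415% of 4T1 cells.

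*Cd24a* was detected in 53.2% and 46.0% of BRCA1-null cells, 75.9% and 76.6% of PyMT, 74.0% and 64.2% of Neu and 51.0% of 4T1 cells, all sorted as CD24+. Without thinning these shares were 82.9% and 68.5%, 92.7% and 96.9%, 88.9% and 93.2%, and 83.6%. With all cells kept, BRCA1-null replicate B thus had the lowest unthinned share of a transcript whose protein was used for the sort. Cells with non-epithelial markers are counted here, 527 of 1901 in that library after thinning. *Cd24a* was seen in 12.6% of the 491 that carried fibroblast markers, also after thinning. The part of such cells in the low unthinned share was not tested.

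Free RNA can give UMIs in cells that do not express a gene. In the 12 leukocyte-marker cells of BRCA1-null replicate B *Epcam* was seen in 5, *Cldn7* in 2, *Cldn3* in 1, *Cldn4* in 0 and *Cdh1* in 0, where 0 of 12 allows a share of up to 25%. Their median depth before thinning was 6646.5 UMIs against 12840 in the other cells, and with 12 cells the level of free RNA is poorly known. In the 491 fibroblast-marker cells of that library *Epcam* was seen in 31.8%, *Cldn3* in 12.8%, *Cldn7* in 8.55%, *Cldn4* in 6.31% and *Cdh1* in 2.44%, at a median depth of 10762 UMIs. *Epcam* stood at 0.723 UMIs per such cell against 7.55 in the other cells, whereas *Tjp1* stood at 0.0855 against 0.0709. Of the 10 genes *Tjp1* alone was not lower per cell in the fibroblast-marker cells. Whether these cells were fibroblasts or mesenchymal tumor cells was not tested, so their UMIs need not be free RNA. In BRCA1-null replicate A *Epcam* was seen in 1 of 6 fibroblast-marker cells, 1 of 5 endothelial-marker cells and the 1 leukocyte-marker cell. These are too few to give the free RNA of that library, and values of replicate B do not give it. The part of free RNA in the *Epcam* share of replicate A, 33.8%, was not tested.

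Counted over all 10 genes, a cell at 3000 UMIs held a median of 5 of them in both PyMT libraries, 4 in both Neu libraries, 3 in 4T1, and 2 and 1 in BRCA1-null replicates B and A. At least 5 of the genes were detected in 63.1% and 67.2% of PyMT cells, 37.8% and 41.1% of Neu cells, 11.4% of 4T1 cells, and 7.21% and 17.2% of BRCA1-null cells. At most 1 was detected in 59.5% and 33.8% of BRCA1-null cells, 14.2% of 4T1 cells and 0.487% to 1.03% of the cells of the other libraries. BRCA1-null replicate B spread over the whole range, while PyMT and Neu cells lay around their medians. Of the 1901 cells of that replicate, 527 carried non-epithelial markers and are included here.

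**Figure D3:**
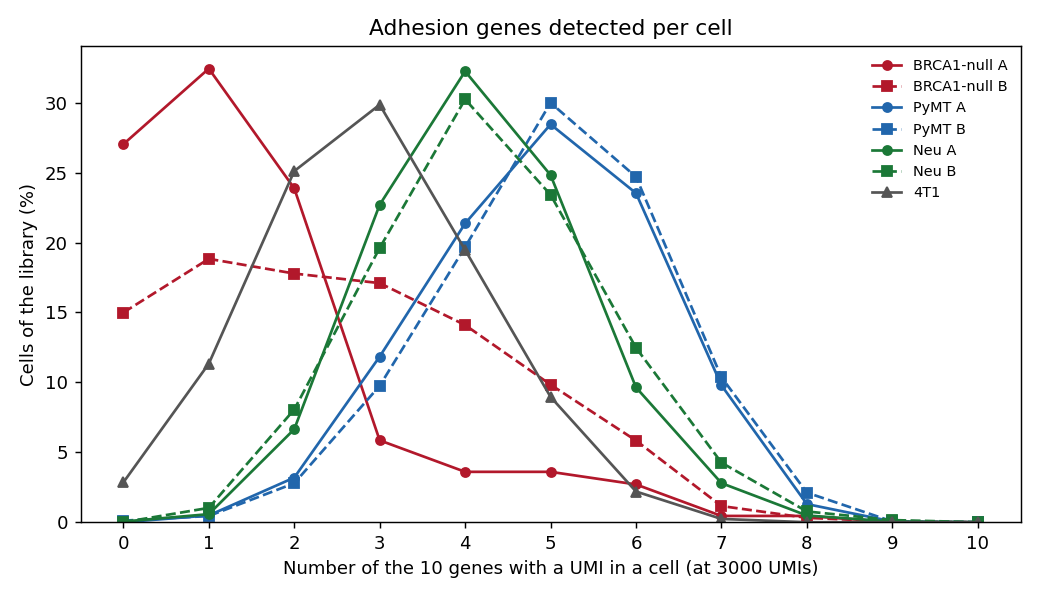
Percent of the cells of a library (vertical axis) that held a UMI of a given number of the 10 genes (horizontal axis) at 3000 UMIs, with 1 line per library. The PyMT lines peak at 5 genes, the Neu lines at 4 and the 4T1 line at 3, and 27.0% of the cells of BRCA1-null replicate A held none.

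Several of the genes were seen in a larger share of the BRCA1-null cells that held *Epcam* than of those that did not. In BRCA1-null replicate B *Cldn3* was seen in 56.4% of 1423 cells with *Epcam* and in 13% of 478 without, *Cldn7* in 46.9% and 6.28%, and *Cdh1* in 15.2% and 1.05%. In BRCA1-null replicate A *Cldn7* was seen in 33.3% of 75 cells with *Epcam* and in 0.68% of 147 without, and *Cldn3* in 40.0% and 15.0%. *Tjp1* was seen at like shares with and without *Epcam*, at 6.82% and 7.95% in BRCA1-null replicate B and 4.00% and 4.76% in replicate A. In 4T1 *Cldn3* was seen in 35.1% of 1529 cells with *Epcam* and 11.5% of 156 without, *Cdh1* in 35.1% and 13.5%, and *Tjp1* in 8.24% and 8.33%. Only 4 to 13 cells lacked *Epcam* in each PyMT and Neu library, too few for the same comparison. *Cldn4* was seen in 38.4% of BRCA1-null replicate B cells with its neighbor *Cldn3* and in 6.66% of those without, against 68.6% and 41.2% in PyMT replicate B, 40.6% and 25% in Neu replicate B, and 37.8% and 27.3% in 4T1. Cells with non-epithelial markers are counted here, 527 of 1901 in BRCA1-null replicate B. In the 491 fibroblast-marker cells of that library *Epcam* was seen in 31.8%, *Cldn3* in 12.8%, *Cldn7* in 8.55% and *Cdh1* in 2.44%. The part of such cells in these shares was not tested. Cells of a library share its free RNA and are not replicates, so these shares carry no test.

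Cells with 0 UMIs of *Cldn3*, *Cldn4* and *Cldn7* together at 3000 UMIs are called claudin-zero cells here and the others claudin-positive. This is a range of a count and not a cell type, and the share depends on the depth chosen. It was 70.7% of cells in BRCA1-null replicate A (157 of 222, exact 95% interval 64.3 to 76.6), 42.8% in replicate B (813 of 1901, 40.5 to 45.0), 2.97% and 2.17% of PyMT cells, 5.69% and 7.55% of Neu cells, and 33.1% of 4T1 cells (30.9 to 35.4). The BRCA1-null and 4T1 libraries stood far above PyMT and Neu. Without cells carrying non-epithelial markers it was 70.5% and 29.4% in BRCA1-null and 33.1% in 4T1, and unthinned it was 31.8%, 21.4% and 8.85%. With cells of exactly 1 UMI added, 195 and 1125 BRCA1-null cells lay on the low side, against 157 and 813.

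**Figure D4:**
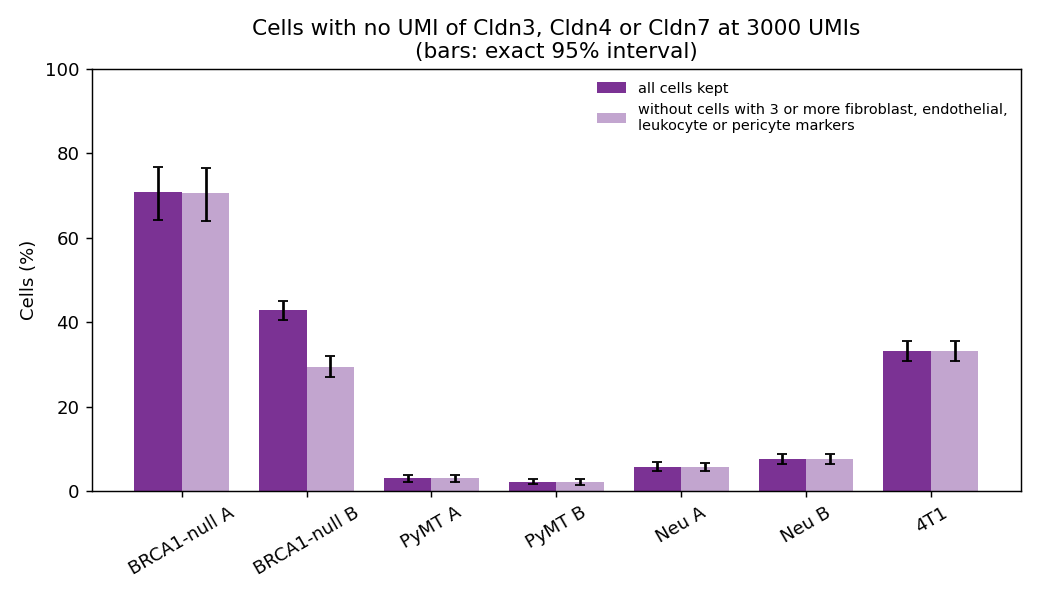
Percent of cells without a UMI of Cldn3, Cldn4 or Cldn7 at 3000 UMIs in each library, for all cells kept (dark) and without cells carrying non-epithelial markers (light), with exact 95% intervals. BRCA1-null replicate B falls from 42.8% to 29.4% without those cells, and no other library moves by more than its interval.

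Within BRCA1-null replicate B 50.3% of claudin-zero cells carried non-epithelial markers against 10.8% of claudin-positive cells, and in replicate A 5.73% against 4.62%. A UMI of *Vim*, the mesenchymal filament vimentin, was seen in 92.5% against 67.7% of cells in replicate B, 72.0% against 47.7% in replicate A, and 94.1% against 91.5% in 4T1. A UMI of *Krt8* or *Krt18*, the simple epithelial keratins, was seen in 66.9% against 92.8% in replicate B and 42.7% against 64.6% in replicate A, and in 99.5% against 99.3% in 4T1. In 4T1 nearly all cells on both sides held these markers, so a share of cells could show little difference there. Claudin-zero cells of BRCA1-null were not uniformly shallower before thinning, at medians of 22370 against 17510 UMIs in replicate A and 11774 against 14018 in replicate B.

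The sums of claudin-zero and claudin-positive cells were compared within libraries, with the library as a block, for the 7 genes that did not make the split. *Cd24a*, *Cldn1* and *Cdh1* were lower in claudin-zero cells, at log2 fold changes of -0.70 (SE 0.12, adjusted p = 0.0156), -1.49 (SE 0.28, adjusted p = 0.0359) and -0.98 (SE 0.20, adjusted p = 0.0471) by edgeR. Over all 8643 genes tested 0.22% were called lower and 0.116% higher, beside 3 and 0 of these 7, and 5 of the 7 had an unadjusted p under 0.05. *Epcam* and *Ocln* stood lower by -0.94 (SE 0.21, adjusted p = 0.0646) and -1.62 (SE 0.37, adjusted p = 0.0682) without passing. *Tjp1* stood at 0.05 (SE 0.20) and *Cldn10* at -0.50 (SE 0.40), with signs that changed under other settings. Of the 29 genes called 34.5% were higher in claudin-zero cells, and with DESeq2 size factors 45.5% of 11, none of them among these 7.

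**Figure D5:**
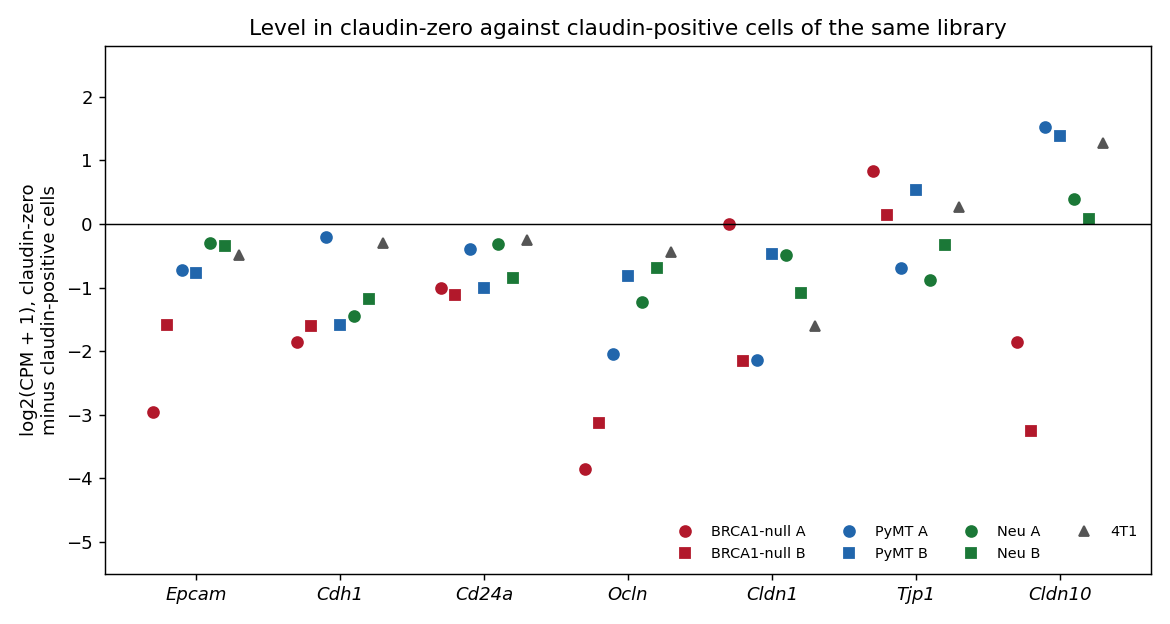
Difference in log2(CPM + 1) between claudin-zero and claudin-positive cells of the same library for the 7 genes that did not make the split, with 1 point per library. Epcam, Cdh1, Cd24a and Ocln lie below 0 in 7 of 7 libraries, and Cldn10 lies below 0 in the 2 BRCA1-null libraries and above 0 in the other 5. Claudin-zero sides held 1 to 20 UMIs of Ocln and 6 to 201 of Cdh1 per library. They held 1, 1 and 5 UMIs of Cldn10 in PyMT A, PyMT B and 4T1.

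*Cd24a* was lower in claudin-zero cells of 7 of 7 libraries, for example at 332 against 670 CPM in BRCA1-null replicate A, 214 against 464 in replicate B and 214 against 256 in 4T1. *Cdh1* was also lower in 7 of 7, at 16.9 against 63.4 CPM in BRCA1-null replicate A, 20.5 against 64.4 in replicate B, 229 against 265 and 66.7 against 202 in the PyMT libraries, 16.1 against 45.4 and 27.2 against 63.2 in the Neu libraries, and 108 against 133 in 4T1. The claudin-zero values of *Cdh1* rest on 9, 47, 37, 8, 6, 11 and 201 UMIs in that order. *Cldn1* was lower in each of the 6 libraries that held a UMI of it after thinning. Their claudin-zero sides held 1 to 17 UMIs of *Cldn1*. Without BRCA1-null replicate B 0 of 7 genes were called, with adjusted p of 0.12, 0.215 and 0.279 for *Cd24a*, *Cldn1* and *Cdh1* (edgeR, 5 of 7 at an unadjusted p under 0.05). *Cd24a* was also not called without PyMT replicate B, *Cldn1* without PyMT replicate A or 4T1, and *Cdh1* without BRCA1-null replicate A, PyMT replicate B or either Neu library. Without cells carrying non-epithelial markers 0 were called as well, with 5 of 7 at an unadjusted p under 0.05 and log2 fold changes of -0.52, -1.38 and -0.73.

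The difference in *Epcam* between claudin-zero and claudin-positive cells was larger in BRCA1-null than in PyMT with Neu, by a test whose call was lost under 3 other settings. It was at 99.3 CPM in claudin-zero and 779 CPM in claudin-positive cells of BRCA1-null replicate A and at 928 and 2784 CPM in replicate B, against 2425 and 4020 CPM and 1941 and 3330 CPM for the PyMT libraries, 2618 and 3222 CPM and 2290 and 2916 CPM for the Neu libraries, and 1058 and 1487 CPM for 4T1. The drop was larger in both BRCA1-null libraries than in any other. The difference between the drop in BRCA1-null and that in PyMT with Neu was -1.61 on the log2 scale (SE 0.25, adjusted p = 0.00252, edgeR, interaction term over 6 libraries with 4 residual degrees of freedom). It was -1.02 without BRCA1-null replicate A and -2.57 without replicate B, and it was not called without both PyMT libraries (-1.81, adjusted p = 0.0586), at 5000 UMIs (-1.51, adjusted p = 0.0517) or without cells carrying non-epithelial markers (-1.21, adjusted p = 0.178).

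*Cldn10* went with the other claudins in BRCA1-null, at 16.9 CPM in claudin-zero and 63.4 CPM in claudin-positive cells of replicate A and at 4.36 and 50.2 CPM in replicate B. In Neu, where its level was highest, it was at 378 and 289 CPM in replicate A and 593 and 564 CPM in replicate B, so claudin-zero cells were not lower. In PyMT the claudin-zero cells held 1 UMI of it in each library. The difference of the drop between BRCA1-null and PyMT with Neu was -3.21 (SE 0.42, adjusted p = 0.000399, edgeR), -3.14 without both PyMT libraries (adjusted p = 0.0112) and -2.21 without BRCA1-null replicate B (adjusted p = 0.117). Of 7634 genes 1.4% were called in this interaction in either direction, beside 2 of 7 here, and 4 of the 7 had an unadjusted p under 0.05. The other 5 genes were not shown to differ in this way, with adjusted p between 0.0728 (*Ocln*) and 0.777 (*Tjp1*). Other epithelial genes were called lower in the same interaction, namely 6 of 6 keratins, with a median of -3.03, 7 of 16 epithelial regulators, with a median of -1.23, and 3 of 15 tight junction genes, with a median of -0.72, beside 0.10 for all genes tested. Of the fibroblast markers 2 of 5 were called lower as well.

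Among the other lists, 1 of 17 tight junction genes fell in claudin-zero cells, the apical polarity gene *Crb3* (-1.35, SE 0.20, adjusted p = 0.00983). Of 16 epithelial regulators tested 1 fell, *Ovol1* (-1.62, SE 0.33, adjusted p = 0.0457), a repressor of the mesenchymal program. None of 9 adherens junction, 6 desmosome and 4 epithelial-mesenchymal transition genes passed. Of 8 mesenchymal genes 2 rose, the collagens *Col1a2* (2.22, adjusted p = 0.0248) and *Col3a1* (2.13, adjusted p = 0.0359, edgeR). Both also count toward a fibroblast-marker cell, so the share of such cells is no separate measure of their rise.

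Among genes with an adjusted p under 0.05 and 50 CPM or more on the higher side, the largest rises in claudin-zero cells were those of the collagens *Col5a2* (2.40), *Col1a2* and *Col3a1* and of the chemokine *Ccl2* (1.73, adjusted p = 0.0457). The collagens, in this order, were at 430 against 83.2, 1317 against 282 and 1515 against 325 CPM in BRCA1-null replicate B. In that library 50.3% of claudin-zero cells carried non-epithelial markers. BRCA1-null replicate A had 48.7 against 13.6, 116 against 40.7 and 109 against 22.6 CPM. In Neu replicate B the claudin-zero side had 0 CPM of each, and in 4T1 the collagens were at 2.15 to 22.0 CPM. *Ccl2* was at 495 against 54.3 CPM in BRCA1-null replicate A, 402 against 56.8 in replicate B and 488 against 241 in 4T1. In PyMT replicates A and B it was at 6.19 against 15.1 and 8.33 against 25.4 CPM. Each of these claudin-zero values of PyMT stands for 1 UMI, so no direction can be read there. The largest falls among such genes were those of *Hp*, for haptoglobin (-3.19, adjusted p = 0.00357), the milk genes *Csn2*, for beta-casein (-2.31, adjusted p = 0.0156), and *Wap*, for whey acidic protein (-1.65, adjusted p = 0.0156), and *Dmkn*, for dermokine (-2.12, adjusted p = 0.0156, edgeR). *Csn2* was at 1.87 against 122 CPM in BRCA1-null replicate A, 56.7 against 617 in replicate B and 1212 against 1727 in Neu replicate B.

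Across the 7 libraries the levels of several of the genes varied together. The Pearson correlation of log2(CPM + 1) was 0.967 between *Epcam* and *Cldn7*, 0.954 between *Cldn1* and *Cldn4* and 0.947 between *Tjp1* and *Cdh1*, and it was negative between *Cldn10* and *Cdh1* at -0.669. The 7 points include the low BRCA1-null replicate A in every pair and the replicates of 3 tumor types, so these values describe the libraries and carry no test. Among 4861 genes of at least 20 CPM on average, those most like *Epcam* were *Clk3*, *Rab8a* and *St14*, with r from 0.971 to 0.989. Those most like *Cldn3* were *Vamp8*, *Cdc42se1* and *Atp6v1b1* (0.970 to 0.977), and those most like *Cldn4* were *Jup*, *Supt5* and *Ap3s1* (0.968 to 0.986). Those most like *Cldn7* were *Eif2b2*, *Dapk3* and *Mapk13* (0.978 to 0.994), and those most like *Cldn10* were *Pecr*, *Aldh7a1* and *Sntb2* (0.981 to 0.982).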

How the data were processed

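The deposited matrices hold raw UMI counts per gene and barcode, made by the authors from 10x Chromium 3′ version 2 libraries with Cell Ranger (2.2.0 for replicate A and 4T1, 3.0.2 for replicate B in the processing notes) and STAR against mm10. No reads were aligned again. The 10 genes and all lists were chosen with earlier results of these data known. Of the deposited files, 3 combined tables were not used here.

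Cells were kept at 1000 or more UMIs, 500 or more genes and under 20% mitochondrial UMIs (13 genes), and doublets were not called. Of 118 barcode sequences shared between libraries, 213 cells kept carried one. The matrix headers name 3.0.2 for every library. UMIs were summed per library, or per side of the split with at least 20 cells on each side, and compared by the quasi-likelihood test of edgeR 4.0.16 in R 4.3.3, with TMM scaling, the filterByExpr filter on low counts and Benjamini-Hochberg adjustment over all genes tested (threshold 0.05). DESeq2 1.42.0 served for alternatives. The fits were tested on simulated data. Totals of kept cells were 5578911 to 37693300 UMIs per library. Thinning used Python 3.11.15 with numpy 2.4.6, and exact Clopper-Pearson intervals scipy 1.17.1. Positions are from GENCODE vM21 on GRCm38, promoters from RefSeq.

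The replicate letter is the sequencing batch in the methods of the study. Deviations of replicate B from A gave Pearson r values of 0.0242 for BRCA1-null with PyMT, 0.0986 for BRCA1-null with Neu, and 0.2 for PyMT with Neu, over 13950 genes. Replicates were separate tumors, with 2 per type. Both PyMT tumors grew from the same transplanted line, so their spread need not cover that between PyMT tumors of separate origin.

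Named genes are each of the 10 genes, up to 4 per other list with the smallest adjusted p, up to 4 per direction of the split with the largest change (adjusted p under 0.05, 50 CPM or more), and for *Epcam*, *Cldn3*, *Cldn4*, *Cldn7* and *Cldn10* the 3 genes most like them across libraries. *Vim*, *Krt8*, *Krt18*, *Cdh5* and *Ptprc* are named as markers. Some genes of the lists are not reported here.

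Alternatives were DESeq2 size factors, the DESeq2 Wald test, no filter on low counts, every barcode, the cell filters of the study, a limit of 10% mitochondrial UMIs, cells with *Krt8* or *Krt18*, cells without non-epithelial markers, a replicate block, other thinning depths and random draws, another cut of the split, and each library left out. For the difference of the claudin-zero effect, leaving out libraries or non-epithelial cells was chosen after seeing the data.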

Additional observations from a re-analysis of the deposited data

Results flagged for a closer look

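The *Cldn10* level was lower in claudin-zero cells of the 2 BRCA1-null libraries only. The claudin-zero sides of PyMT A, PyMT B and 4T1 held 1, 1 and 5 UMIs of this gene. In a test of the difference, the claudin-zero effect on *Cldn10* differed between BRCA1-null and PyMT with Neu, at -3.21 on the log2 scale. It was not called without BRCA1-null replicate B. The effect on *Epcam* differed in the same test, at -1.61, and was not called at 5000 UMIs, without both PyMT libraries or without non-epithelial cells.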

How the results depend on the processing

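Genes called of the 10 in BRCA1-null against the mean of PyMT and Neu numbered 2, and 6 with the DESeq2 Wald test, 8 with no filter on low counts, 5 with the replicate block and 1 to 8 with a library left out, when all genes called ranged from 1897 to 4033 beside 3844. Between PyMT and Neu they numbered 2, and 5 with the DESeq2 Wald test, 7 with no filter (3583 of all genes beside 2355), 4 with the replicate block and 1 to 7 with a library left out (292 to 4010 of all genes). For claudin-zero against claudin-positive cells they numbered 3 of 7, and 0 with DESeq2 size factors, 1 with the DESeq2 Wald test, 6 with no filter, 0 at 5000 UMIs, 0 with 0 or 1 against 2 or more UMIs, 0 without non-epithelial cells, 1 with only *Krt8* or *Krt18* cells and 0 to 3 with a library left out. Where edgeR called 0 genes, 5 of 7 had an unadjusted p under 0.05. All genes called in that comparison were 29, and 11, 6, 576, 6, 2, 3 and 11 under those settings in the same order, and 1 to 36 with a library left out. Of those called, 34.5% were higher with TMM and 45.5% with DESeq2 size factors. For the difference of the claudin-zero effect 2 of 7 were called, and 1 at 5000 UMIs, 1 without both PyMT libraries, 1 without non-epithelial cells and 1 to 2 with a library left out, and all genes called were 107, and 263 at 2000 UMIs, 22 at 5000 UMIs, 25 without both PyMT libraries, 48 without non-epithelial cells and 39 to 563 with a library left out. At 5000 UMIs both PyMT libraries left these fits, with 18 and 11 claudin-zero cells. The cause of the other changes was not tested. For BRCA1-null, all genes called were 4518 with the DESeq2 Wald test, 5621 of 20397 tested with no filter and 3672 with the replicate block. Between PyMT and Neu they were 3434 with the DESeq2 Wald test and 2229 with the replicate block.

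No fold change called in the settings of the report changed its sign under another setting run. *Cldn10* in the split, not called there, was called lower with no filter and changed sign with the DESeq2 Wald test and without BRCA1-null replicate B. Of the 10 genes, signs held in 145 of 150 values for BRCA1-null, 150 of 150 for PyMT against Neu, 98 of 105 for the split and 66 of 69 for its difference. The exceptions were *Cldn10*, *Tjp1* and *Cldn1*. Another random draw moved 2 of 77 shares beyond their interval, one depth against another moved most of them, and leaving out non-epithelial cells moved 10. Precision was limited by 2 tumors per type, both from the same line in PyMT, and by the 222 cells of BRCA1-null replicate A at 3000 UMIs.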
